A study of Arabidopsis thaliana with 36 samples.

Results

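Shoots of the Arabidopsis thaliana ecotype Kas-1 (Kas) were compared with shoots of the ecotype Tsu-1 (Tsu) after 48 h on medium without iron. The 6 arrays were chosen by sample title, 3 for Kas and 3 for Tsu, from the 36 arrays of the series. Both ecotypes are natural inbred lines. All plants were 24 d old when they were moved from complete hydroponic medium on rockwool, in 16 h days with light at 150 µmol, to fresh medium that held either 50 µM Fe(III)-EDDHA or no iron. The other shoot groups were Kas and Tsu after 24 h with iron and Kas and Tsu after 24 h without it, and roots were sampled in the same 6 combinations, with 3 arrays each. Kas and Tsu shoots on complete medium, and Kas and Tsu roots after 48 h without iron, serve below as the other settings in which the same ecotype difference was measured.

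Iron is a cofactor of the photosystems, of chlorophyll synthesis and of Fe-S and heme enzymes, so the shoot is where most of it is used. Leaves short of iron raise transcripts of bHLH transcription factors and of IMA peptides, which drive iron uptake, while E3 ligases of the BTS family hold that response back. Natural ecotypes also differ in genes for glucosinolates, the sulfur-containing defence compounds of the cabbage family, and in defence, cold and drought genes.

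Expression was read on a 1-colour Affymetrix array as 1 log2 value per probe set, from 1.31 to 13.47 over all arrays. The extraction protocol names whole rosettes for every sample, while the titles name shoots and roots. The mean of the 3 measured photosystem markers was 12.03 to 12.24 in the Kas arrays and 11.98 to 12.12 in the Tsu arrays, against 4.01 to 5.53 in the root arrays. The mean of the 3 root markers EXPA7, EXPA18 and PYK10 was 4.06 to 4.68 in Kas shoots and 4.08 to 4.17 in Tsu shoots, against 7.60 to 8.64 in the root arrays. Replicates of a group correlated across probe sets at 0.989 to 0.996, and the highest correlation with an array of the other ecotype was 0.964. Tsu replicate 3 had its highest correlation, 0.992, with a Tsu array of complete medium rather than with its own group. A 25S ribosomal RNA control probe read 9.78 to 9.81 in Kas and 5.84 to 9.07 in Tsu, and its part in the results was not tested. On an index over 364 probe sets that separated the ecotypes on complete medium, where Tsu lay at 0 and Kas at 1, the Kas arrays lay at 1.0 to 1.04 and the Tsu arrays at 0.05 to 0.07. The arrays titled Tsu shoots, 24 h without iron, lay between the ecotypes, at 0.48 to 0.61. They entered only the estimate of the spread, and without them 8093 probe sets passed the test described next, against 8342 with them.

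Every difference below is Kas minus Tsu on the log2 scale, from limma, with its standard error (SE), and a gene was called where its Benjamini-Hochberg adjusted p over 22746 probe sets was below 0.05. Whether replicates were grown as separate cultures is not stated, so every p-value reflects the scatter among these 3 arrays a group, and that scatter may be technical. The probes match the sequence of a single Arabidopsis reference line, so a lower transcript level and a poorer match of an ecotype's own sequence to the probes cannot be told apart, and neither can fewer cells of a type and less RNA per cell.

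Of the 22746 probe sets, 8342 were called between Kas and Tsu shoots without iron, which is 36.7% of those tested. Of these, 3058 were higher in Kas (13.4% of those tested) and 5284 were lower (23.2%). The direction of the small differences depended on the scaling. The median difference over all probe sets was -0.09, and 36.7% of the calls were higher in Kas, a share that was 51.5% with each array centred on its median and 47.9% after quantile normalization. At least a 2-fold difference was reached by 797 probe sets that were higher in Kas and 955 that were lower, together 7.7% of those tested. At least an 8-fold difference was reached by 76 and by 49. In 29 of the 76 and 21 of the 49, the ecotype with less signal lay below 2.82, the lower quartile of all values on the 6 arrays. Without iron, the 3 Kas arrays lay wholly on one side of the 3 Tsu arrays at 10379 probe sets, 45.6% of those tested, and 7832 of these were also called (34.4%).

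The 30 genes with the largest called differences, 15 in each direction, differed by 11.7-fold to 157-fold, all with an adjusted p of 5.56e-08 or less. Among the 15 higher in Kas were a putative chitinase, an osmotin, a glutamate receptor-like channel and a serine carboxypeptidase-like protein. Among the 15 lower in Kas were AOP3, an enzyme of glucosinolate side-chain modification, the alpha-tubulin gene TUA6 and the TIR-NB-LRR receptor gene CSA1. They were chosen by size and by Kas and Tsu arrays that do not overlap, so both traits are a description. The plot of the 30 genes by array shows each of the 6 readings.

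**Figure D1:**
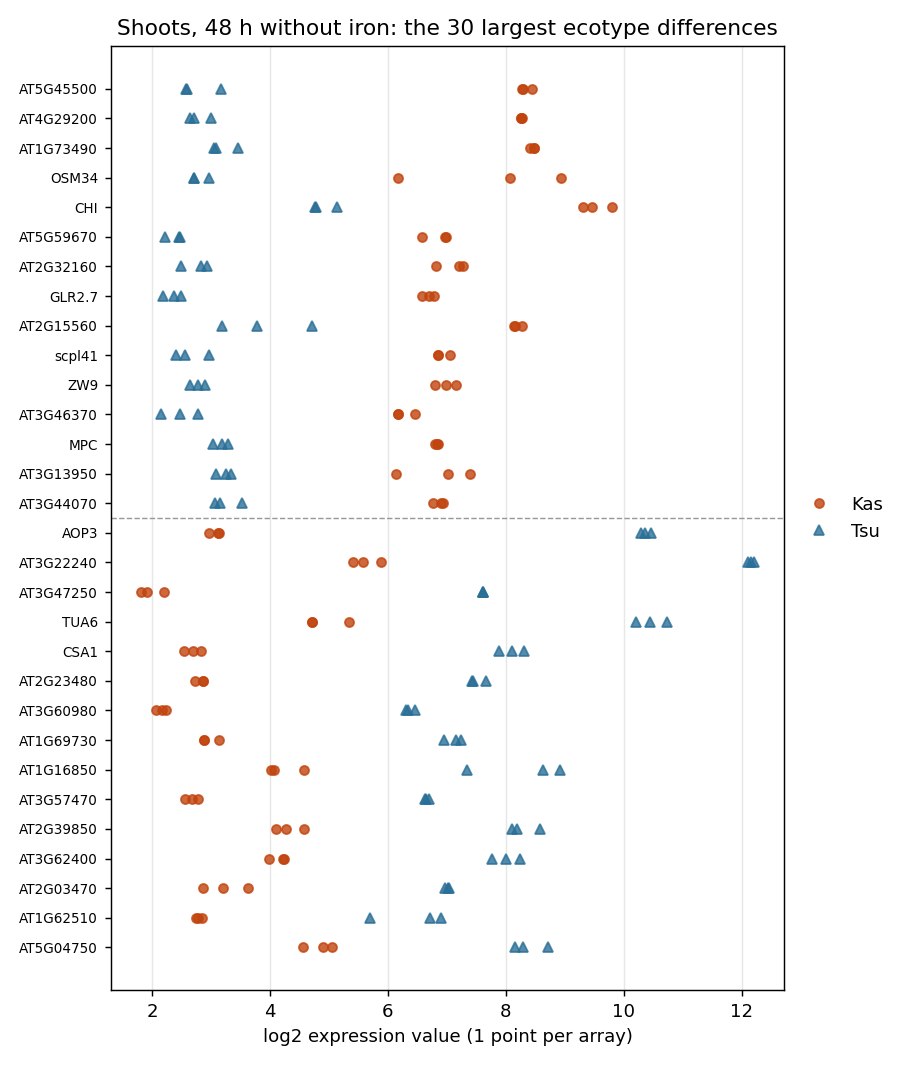
Log2 expression value (horizontal axis) of the 30 genes with the largest Kas minus Tsu differences in shoots after 48 h without iron, 1 point per array, Kas as circles and Tsu as triangles. The 15 genes above the dashed line were higher in Kas and the 15 below it were lower. AT5G45500 differed by 5.55 and AOP3 by -7.29. The choice of genes required the 3 Kas arrays to lie apart from the 3 Tsu arrays. Such a gap was present at 45.6% of all probe sets.

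AT5G45500 headed the genes higher in Kas. Its values were 8.27, 8.30 and 8.44 in Kas, against 2.57, 2.60 and 3.18 in Tsu, a difference of 5.55 (SE 0.17), or 46.9-fold. All 3 Tsu arrays lay near the bottom of the array's range. AT4G29200 read 8.25, 8.26 and 8.28 in Kas and 2.72, 3.01 and 2.64 in Tsu, a difference of 5.47 (SE 0.12). Its 3 Kas readings had an SD of 0.01. AT1G73490 had 8.41, 8.48 and 8.47 in Kas, against 3.05, 3.45 and 3.09 in Tsu, a difference of 5.25 (SE 0.18).

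OSM34 encodes an osmotin-like protein of the pathogenesis-related class. It read 8.93, 8.06 and 6.17 in Kas shoots, against 2.72, 2.97 and 2.71 in Tsu shoots, so that the Kas arrays spread over an SD of 1.41 and still lay above every Tsu array. The difference was 4.92 (SE 0.46), 30.3-fold, with a 95% interval from 3.95 to 5.89. CHI (AT2G43570), annotated as a putative chitinase, an enzyme class that cuts the chitin of fungal walls, had 9.80, 9.47 and 9.31 in Kas and 4.78, 4.76 and 5.14 in Tsu. The difference was 4.63 (SE 0.16), 24.8-fold. Both genes were strongly read in the roots of both ecotypes: OSM34 averaged 10.71 in Kas roots and 10.69 in Tsu roots, and CHI 8.52 in Kas roots and 8.62 in Tsu roots. The contrast between the ecotypes in these 2 defence genes was thus present in shoots and not called in roots.

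GLR2.7, a glutamate receptor-like cation channel, read 6.69, 6.78 and 6.58 in Kas, against 2.18, 2.49 and 2.37 in Tsu, a difference of 4.34 (SE 0.12). The adjacent channel gene GLR2.8 was also higher in Kas, by 2.2 (SE 0.21). The serine carboxypeptidase-like gene scpl41 had 6.85, 6.86 and 7.06 in Kas and 2.96, 2.56 and 2.41 in Tsu, a difference of 4.28 (SE 0.15). Its relative scpl42 differed the other way, by -3.31. The other genes higher in Kas were AT5G59670 (4.45), AT2G32160 (4.35), AT2G15560 (4.29), ZW9 (4.20), AT3G46370 (3.80), AT3G13950 (3.62), AT3G44070 (3.61) and MPC (3.66), a gene named for its expression from the maternal allele. AT3G13950 had the spread of OSM34 in the same order, with 7.39, 7.02 and 6.13 in the 3 Kas arrays, against 3.09, 3.35 and 3.25 in the Tsu arrays.

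AOP3 had the lowest Kas minus Tsu difference of any probe set that names 1 gene. It encodes a 2-oxoglutarate-dependent dioxygenase that forms hydroxyalkyl glucosinolates. Its values were 3.12, 2.97 and 3.14 in Kas, against 10.47, 10.35 and 10.29 in Tsu. The difference was -7.29 (SE 0.14), 157-fold, with a 95% interval from -7.58 to -7.00. The 3 replicates of each ecotype agreed to an SD of 0.09. AOP1, a dioxygenase gene of the same cluster and the nearest measured neighbour of AOP3 on 1 side, read 4.67, 4.86 and 4.80 in Kas and 6.28, 6.0 and 6.14 in Tsu, a difference of -1.36 (SE 0.18).

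AT3G22240 combined a high level in Tsu with the next largest fold. It had 5.57, 5.40 and 5.89 in Kas, against 12.15, 12.20 and 12.10 in Tsu, a difference of -6.53 (SE 0.15), 92.6-fold. TUA6, an alpha-tubulin of the microtubules, read 4.72, 4.71 and 5.35 in Kas and 10.20, 10.44 and 10.73 in Tsu, a difference of -5.53 (SE 0.23). Tubulin genes are close copies of one another, so this reading may include other copies. CSA1, an intracellular receptor gene of the TIR-NB-LRR class of resistance genes, had 2.55, 2.83 and 2.69 in Kas, against 8.11, 8.31 and 7.88 in Tsu, a difference of -5.41 (SE 0.18). AT3G47250 had 1.92, 1.82 and 2.2 in Kas and 7.61, 7.62 and 7.61 in Tsu, a difference of -5.63 (SE 0.13).

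The remaining genes lower in Kas carry locus codes alone. They were AT2G23480 (-4.70), which RefSeq lists as a pseudogene, AT3G60980 (-4.22), AT1G69730 (-4.15), AT1G16850 (-4.08), AT3G57470 (-3.98), AT2G39850 (-3.97), AT3G62400 (-3.86), AT2G03470 (-3.77), AT1G62510 (-3.64) and AT5G04750 (-3.55). AT1G16850 varied most among the Tsu arrays, with 8.92, 8.63 and 7.33, and read 4.01, 4.06 and 4.58 in Kas. AT1G62510 likewise read lowest in Tsu replicate 3, with 6.90, 6.71 and 5.70 in Tsu, against 2.76, 2.85 and 2.78 in Kas. Probe sets that name no gene here reached the same size. The largest of them read a mean of 10.80 in Kas and 3.13 in Tsu, a difference of 7.67, and a probe set shared by several genes averaged 2.76 in Kas and 10.38 in Tsu, a difference of -7.62.

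Neighbouring genes were looked up by their order in RefSeq (assembly TAIR10.1). For 19 of the 30 genes at least 1 adjacent locus was measured, 26 pairs in all. Beside 36.7% of all probe sets called, in 8 pairs the neighbour was called in the same direction, in 3 it was called in the opposite direction and in 15 it was not called. The same direction was seen for AT5G45510 (2.78) beside AT5G45500, for AT5G59660 (1.26) and AT5G59680 (3.18) on either side of AT5G59670, for AT2G43560 (0.75) beside CHI and for AT1G62500 (-2.02) beside AT1G62510. HEMB1 lay beside AT1G69730 and differed by -2.26. The opposite direction was seen for SR (-0.54) beside OSM34, AT2G32170 (-0.33) beside AT2G32160 and AT3G19340 (-0.39) beside MPC.

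Of 277 genes in 15 functional lists, 59 were on a probe set that named them alone, by 60 probe sets. The lists were chosen with earlier results of these data known, so their counts are a description. The lists of resistance genes and of flowering time had 0 measured members. Of the 60 probe sets, 11 were called higher in Kas, 18 lower and 31 were not called. That is 29 of 60 called, where 36.7% of all probe sets were called, with a median difference of -0.06 against -0.09 over all probe sets. With each array centred on its median, 16 were called higher and 12 lower. The plot of list members shows members farther from 0 than BHLH101, at -1.08, in the coumarin, redox, chlorophyll, glucosinolate, defence and drought and cold lists, and none among the other iron-signalling genes or in the transport, metal, Fe-S, photosystem, clock and root marker lists.

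**Figure D2:**
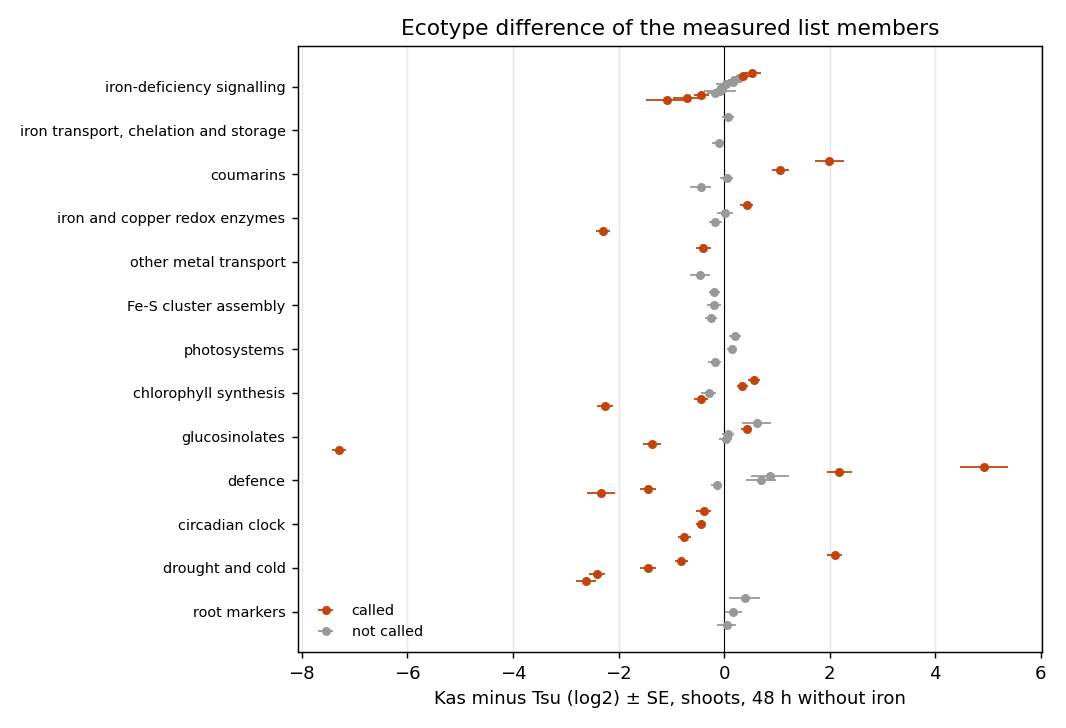
Kas minus Tsu difference (log2, horizontal axis) with its standard error for each of the 60 measured probe sets of the functional lists in shoots after 48 h without iron, 1 list per line. Called members are in colour and others in grey. AOP3 lies at -7.29 and OSM34 at 4.92, while no iron-signalling gene lies beyond -1.08 or 0.52.

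The measured genes of iron-deficiency signalling showed small ecotype differences in shoots. They were 12 of the 21 listed, without BHLH38, BHLH39, BHLH100, BTS, IMA2 and IMA3 among others. Of their 13 probe sets, 2 were called higher in Kas, beside 13.4% of all probe sets, and 3 lower, beside 23.2%. The other 8 were not called, and the list median was -0.03. BHLH101, a transcription factor gene raised by iron shortage, read 4.27, 3.63 and 3.15 in Kas, against 4.74, 4.48 and 5.08 in Tsu, a difference of -1.08 (SE 0.40, adjusted p = 0.0383). The groups did not overlap, as at 45.6% of all probe sets. The adjusted p was 0.165 without Kas replicate 3 and 0.0594 with each array centred on its median. PYE, the bHLH factor POPEYE that restrains part of the response, was lower by -0.43 (adjusted p = 0.0224), and AT5G05250 by -0.70 (adjusted p = 0.0385). BHLH34, a partner that activates the group of BHLH101, was higher by 0.52 (adjusted p = 0.0213), and AT3G07720 by 0.35 (adjusted p = 0.0431). None of these 5 calls held under every alternative. Their highest adjusted p was 0.165 for BHLH101, 0.0833 for PYE, 0.144 for AT5G05250, 0.105 for BHLH34 and 0.259 for AT3G07720. With each array centred on its median the list had 3 members called higher and 0 called lower.

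IMA1 encodes a small peptide that promotes iron uptake, and its arrays of the 2 ecotypes overlapped. It had 7.88, 7.69 and 7.57 in Kas and 7.81, 7.71 and 7.83 in Tsu, a difference of -0.07 (SE 0.30) with a 95% interval from -0.70 to 0.56. On complete medium the same gene averaged 4.14 in Kas and 5.44 in Tsu, a called difference of -1.30 (adjusted p = 0.0022). The 2 differences were not shown to differ from each other, as their own contrast was 1.24 with an adjusted p of 0.12. The bHLH genes ILR3 (0.17), BHLH104 (-0.03), BHLH115 (-0.04) and BHLH121 (-0.17) were not called, and neither were the E3 ligase genes BTSL1 (0.20 and 0.04 on its 2 probe sets) and BTSL2 (0.29). BTSL1 was dim in the shoots of both ecotypes, with means of 2.28 in Kas and 2.09 in Tsu on the dimmer of its probe sets.

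The coumarin genes, which make phenolics that mobilise iron in soil, were measured at 4 loci. Of these, 2 were called, both higher in Kas, beside 13.4% of all probe sets. F6'H1, the enzyme that opens the scopoletin pathway, read 5.83, 5.50 and 5.29 in Kas, against 3.79, 3.29 and 3.55 in Tsu, a difference of 2.0 (SE 0.28, adjusted p = 8.94e-06). COSY, the coumarin synthase of the next step, had 6.28, 6.39 and 6.60 in Kas and 5.61, 5.15 and 5.33 in Tsu, a difference of 1.06 (SE 0.16). In both genes each Kas array exceeded each Tsu array, where the ecotypes lay apart at 45.6% of all probe sets. S8H, which forms fraxetin, differed by -0.44 (adjusted p = 0.0904), and BGLU42, a beta-glucosidase that frees scopoletin from its glucoside, by 0.05. S8H was dim in both ecotypes, with means of 2.83 in Kas and 3.27 in Tsu.

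Few other iron and metal genes were measured. They were 2 of 32 for iron transport, chelation and storage, 4 of 16 redox enzymes and 2 of 19 other metal transporters. These measured genes differed little, with ARPN as the exception. ARPN encodes plantacyanin, a blue copper protein, and read 4.09, 3.74 and 3.96 in Kas, against 6.13, 6.15 and 6.38 in Tsu, a difference of -2.29 (SE 0.13). The stromal ascorbate peroxidase SAPX was higher in Kas by 0.43 (SE 0.13), with an adjusted p of 0.0119 that was 0.0572 without Kas replicate 2 and 0.0532 without Kas replicate 3. The thylakoid enzyme TAPX (-0.16) and the copper chaperone CCS (0.02) were not called. MTP8, a manganese transporter, was called at -0.39 (adjusted p = 0.0351, up to 0.334 under the alternatives), and ZIP9, a zinc transporter, was at -0.46 (adjusted p = 0.0663). Both were dim in shoots, with means of 2.92 in Kas and 3.31 in Tsu for MTP8 and 2.99 and 3.45 for ZIP9. The mitochondrial iron transporters MIT1 (0.07) and MIT2 (-0.10) were not called.

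The 3 photosystem genes read near the top of the array's range and were not called. PSAN, a subunit of photosystem I, averaged 11.94 in Kas and 11.73 in Tsu, a difference of 0.21 with a 95% interval from -0.02 to 0.43. LHCB4.1 differed by 0.15 and PSAE1 by -0.18. The Fe-S cluster assembly genes NFS2 (-0.25), HCF101 (-0.18) and ISU1 (-0.18) were not called either. They were the 3 measured of the 15 listed. SUFE2, a gene of sulfur supply for Fe-S clusters outside the list, was called at -2.55 and is described below.

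Chlorophyll synthesis had 4 of 5 members called, beside 36.7% of all probe sets, 2 in each direction as deposited and 2 higher and 1 lower with each array centred on its median. HEMB1, the aminolevulinate dehydratase that makes porphobilinogen, read 6.71, 6.67 and 6.52 in Kas, against 8.79, 8.91 and 8.97 in Tsu. Its difference of -2.26 (SE 0.16), 4.78-fold, was the largest of the list. PORB, a light-dependent protochlorophyllide reductase, was lower in Kas by -0.44 (adjusted p = 0.0128, 0.057 with each array centred on its median). GSA1, the aminomutase that supplies aminolevulinate, was higher in Kas, with 8.51, 8.43 and 8.68 in Kas and 8.07, 7.80 and 8.05 in Tsu, a difference of 0.57 (SE 0.11). CHLM, the methyltransferase that follows magnesium insertion, was higher by 0.34 (adjusted p = 0.0133, up to 0.0735 under the alternatives). The magnesium chelatase subunit CHLI2 was at -0.29 and was not called.

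Of 6 measured glucosinolate genes 3 were called, beside 36.7% of all probe sets. AOP3 and AOP1 were lower in Kas and BCAT4 was higher, and with either other scaling 2 were called in each direction. BCAT4, the aminotransferase that starts methionine chain elongation, read 11.35, 11.23 and 11.27 in Kas, against 10.94, 10.91 and 10.72 in Tsu, a difference of 0.43 (SE 0.10). Its adjusted p of 0.00239 was 0.247 when all 36 arrays entered the fit. The glucosyltransferases UGT74B1 (0.03) and UGT74C1 (0.08), which close the glucosinolate core, were not called. GSL-OH, which hydroxylates an alkenyl side chain, spread over 5.92, 5.35 and 4.6 in Kas and read 4.6, 4.65 and 4.78 in Tsu, and its difference of 0.62 was not called as deposited (adjusted p = 0.085). GSL-OH was called with each array centred on its median (adjusted p = 0.0451), after quantile normalization (0.0437) and without Kas replicate 3 (0.00729).

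Defence genes went both ways, with 4 of 7 called, beside 36.7% of all probe sets. The split was 2 higher and 2 lower as deposited, 4 and 2 with each array centred on its median, and 3 and 2 after quantile normalization. Besides OSM34, the plant defensin gene PDF1.2 was higher in Kas, with 9.27, 8.97 and 8.77 in Kas and 6.38, 6.57 and 7.51 in Tsu, a difference of 2.18 (SE 0.24). The thionin genes, which encode small antimicrobial peptides of another class, were lower in Kas. THI2.1 read 2.73, 2.89 and 3.21 in Kas, against 6.04, 5.05 and 4.72 in Tsu, a difference of -2.33 (SE 0.27). THI2.2 had 3.85, 3.70 and 4.04 in Kas and 4.98, 5.46 and 5.46 in Tsu, a difference of -1.44 (SE 0.15). In all 4 genes the ecotypes did not overlap, as at 45.6% of all probe sets and at 7832 of the 8342 called. The defensin genes PDF1.2b (0.87, adjusted p = 0.0657), PDF1.4 (0.70, adjusted p = 0.0568) and PDF1.1 (-0.14) were not called as deposited. With each array centred on its median the adjusted p was 0.0424 for PDF1.2b and 0.0292 for PDF1.4, and over all alternatives the lowest was 0.015 and 0.0146. PDF1.2b is a close copy of PDF1.2 with which it may share probes.

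All 5 measured drought and cold genes were called, beside 36.7% of all probe sets, and 4 of them were lower in Kas, beside 23.2%. COR15A and COR15B encode chloroplast proteins that protect membranes in the cold. COR15A had 9.17, 9.38 and 9.59 in Kas, against 11.87, 11.91 and 11.57 in Tsu, a difference of -2.40 (SE 0.15), and COR15B differed by -1.44 (SE 0.15). The dehydrin gene LTI30 read 5.93, 5.97 and 6.09 in Kas and 8.91, 8.85 and 8.07 in Tsu, a difference of -2.61 (SE 0.20). A further dehydrin gene, COR47, differed by -0.81 (SE 0.12). STZ, a zinc finger repressor induced by salt and cold, went the other way, with 5.79, 5.86 and 5.72 in Kas, against 3.57, 3.90 and 3.62 in Tsu, a difference of 2.09 (SE 0.14). The list median was -1.44, against -0.09 over all probe sets. The list was chosen with earlier results of these data known, so its count and median are a description.

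The 3 measured clock genes were all called lower in Kas, beside 23.2% of all probe sets, each by less than 1 log2 unit. GI (GIGANTEA), an evening-phased regulator, read 8.21, 8.24 and 8.23 in Kas and 8.72, 8.70 and 8.58 in Tsu, a difference of -0.44 (SE 0.10). COR27 and COR28, cold-regulated genes that also feed into the clock, differed by -0.75 (SE 0.13) and -0.39 (SE 0.14). The call of COR28 ended with each array centred on its median (adjusted p = 0.117), and its Kas and Tsu arrays overlapped. The call of GI ended when all 36 arrays entered the fit (adjusted p = 0.0783). The labels give no hour of harvest.

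The same ecotype difference was measured on other arrays, in shoots on complete medium after 24 h. There 7549 probe sets were called, 33.2% of those tested, with 2997 higher in Kas (13.2%) and 4552 lower (20%). Of the 797 probe sets called at least 2-fold higher in Kas without iron, 709 were called higher on complete medium and 5 lower. Of the 955 at least 2-fold lower, 885 were called lower and 3 higher. Calls of any size overlapped in part: 1923 were higher in Kas on both media, 62.9% of those without iron and 64.2% of those on complete medium, and 3039 were lower on both, 57.5% and 66.8%. The 2 media share no array, although they share an estimate of the spread. Across probe sets, which are not independent replicates, the differences on the 2 media correlated at 0.849. All 30 genes with the largest differences were called in the same direction on complete medium, and at all 30 the 3 Kas arrays lay apart from the 3 Tsu arrays there too, as they did at 43.5% of all probe sets. AOP3 averaged 3.15 in Kas and 10.02 in Tsu on complete medium, and GLR2.7 6.52 in Kas and 2.48 in Tsu.

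Whether the ecotype difference changed with the medium was tested by its own contrast, the difference without iron minus the difference on complete medium. It shares arrays with both. This contrast was called at 897 probe sets, 3.94% of those tested, of which 443 were positive (1.95%) and 454 negative (2%). With each array centred on its median 61.0% of the calls were positive, against 49.4% as deposited. The count depended on the arrays used: it was 1577 without Tsu replicate 3 at 48 h without iron, 505 without Kas replicate 2, 533 without Tsu replicate 1 and 539 without Kas replicate 1 of the same time. Of the complete-medium arrays, it was 565 without Tsu replicate 3 and 570 without Kas replicate 3. Complete medium was sampled at 24 h and the medium without iron at 48 h, so iron and time cannot be told apart in it.

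The 10 genes with the largest such contrasts had ecotype differences from -2.55 to 1.80 without iron. EXLA1, an expansin-like cell wall gene, read 5.46, 5.61 and 5.45 in Kas without iron, against 5.14, 5.43 and 6.51 in Tsu without iron, and averaged 4.73 in Kas and 7.20 in Tsu on complete medium. The ecotype difference was thus -0.18 without iron and -2.47 on complete medium, a contrast of 2.29 (SE 0.34, adjusted p = 0.00113, 0.0778 with all 36 arrays). SUFE2, an activator of the cysteine desulfurase that supplies sulfur for Fe-S clusters, had 2.77, 2.71 and 2.63 in Kas without iron and 5.24, 4.96 and 5.56 in Tsu without iron. It averaged 2.89 in Kas and 3.76 in Tsu on complete medium. Its difference was -2.55 without iron and -0.87 on complete medium, a contrast of -1.68 (SE 0.23, adjusted p = 0.000658, 0.246 with all 36 arrays). The Kas arrays of SUFE2 lay at the dim end of the range on both media.

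AT1G06830 was higher in Kas without iron and not called on complete medium, with 6.76, 7.08 and 7.41 in Kas and 5.62, 5.43 and 4.80 in Tsu without iron, and a contrast of 2.06. AT1G80130 changed direction between the media, at -1.35 without iron and 1.14 on complete medium, a contrast of -2.48. AT1G73040 did so too, at -1.38 and 0.48, a contrast of -1.86. AT5G48490 had the opposite pattern, at 1.22 without iron and -0.96 on complete medium, a contrast of 2.18. In 7 of the 10 genes, Tsu replicate 3 without iron was the nearest of its group to the Tsu mean on complete medium. The plot of the genes by medium shows the single readings, without replicate numbers. The other genes of the rule were AT5G01015 (2.02), AT1G76240 (1.88), AT4G22490 (-1.80, adjusted p = 0.0191, up to 0.0589 under the alternatives) and AT4G14090 (-1.78).

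**Figure D3:**
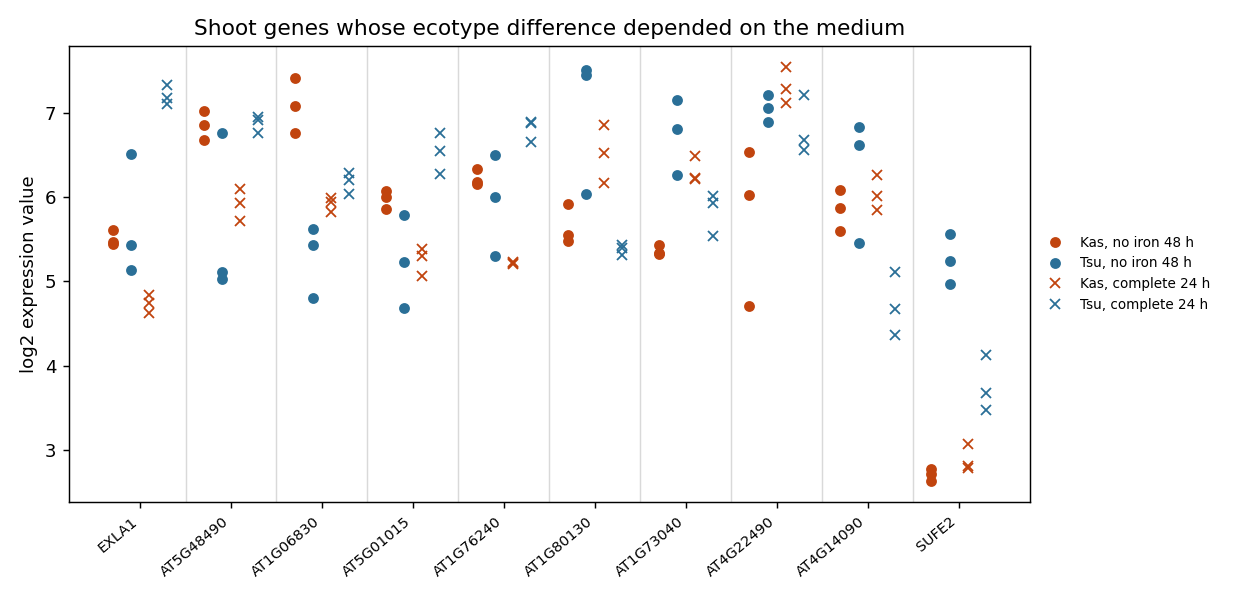
Log2 expression value (vertical axis) in Kas and Tsu shoots after 48 h without iron (circles) and after 24 h on complete medium (crosses) for the 5 largest positive and 5 largest negative contrasts between the media, 1 point per array. For EXLA1 the Tsu mean is 5.69 without iron and 7.20 on complete medium, and the highest of its 3 Tsu circles, 6.51, is replicate 3.

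Among the 60 list probe sets, 3 had a called contrast between the media, beside 3.94% of all probe sets. CCS, the copper chaperone of superoxide dismutase, differed by 0.02 without iron and 0.78 on complete medium, a contrast of -0.77 (adjusted p = 0.046, up to 0.121 under the alternatives). COR27 differed by -0.75 without iron and -0.01 on complete medium, a contrast of -0.74 (adjusted p = 0.029, up to 0.115). COR28 differed by -0.39 and 0.64, a contrast of -1.02 (adjusted p = 0.00654, up to 0.0816). No iron-signalling gene had a called contrast.

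Several root arrays stood apart from their labels. In roots after 48 h without iron, AT5G45500 read 9.94, 9.73 and 10.04 in Kas, against 3.17, 6.60 and 3.10 in Tsu, and AT4G29200 read 8.2, 8.11 and 8.25 in Kas, against 2.27, 5.01 and 2.39 in Tsu, so that Tsu replicate 2 lay between the ecotypes in both genes. In the 12 root arrays of 24 h, AT5G45500 read 8.93 to 10.25 in those titled Kas and 7.40 to 9.62 in those titled Tsu, and AOP3 read 2.82 to 6.58 in those titled Kas and 5.0 to 7.53 in those titled Tsu. These 12 arrays enter the values below only through the estimate of the spread. The 25S ribosomal RNA control read 5.21 to 6.91 in the Kas roots and 9.25 to 11.55 in the Tsu roots of 48 h, and its part in the results was not tested. The root results are therefore also given with only the 48 h arrays and without Tsu replicate 2, for the gene lists as alternatives chosen after seeing the data.

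In roots after 48 h without iron, 5629 probe sets were called between Kas and Tsu, 24.7% of those tested, with 2058 higher in Kas (9.05%) and 3571 lower (15.7%). The 3 Kas arrays lay apart from the 3 Tsu arrays at 41.7% of those tested. The count was 5681 with only the 48 h root arrays, 4602 without Tsu replicate 2 and 3707 without Tsu replicate 1 of the roots. The share of calls higher in Kas was 36.6%, and 61.7% with each array centred on its median, which gave a median difference over all probe sets of 0.11, against -0.04 as deposited. Of the 797 probe sets at least 2-fold higher in Kas shoots, 302 were called higher and 99 lower in Kas roots. Of the 955 at least 2-fold lower in Kas shoots, 483 were called lower and 36 higher in Kas roots. The shoot and root arrays are separate samples, and the correlation of the differences across probe sets was 0.356. The plot of the differences in the other settings shows a band along the diagonal for complete medium and a scatter with a thin diagonal for roots.

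**Figure D4:**
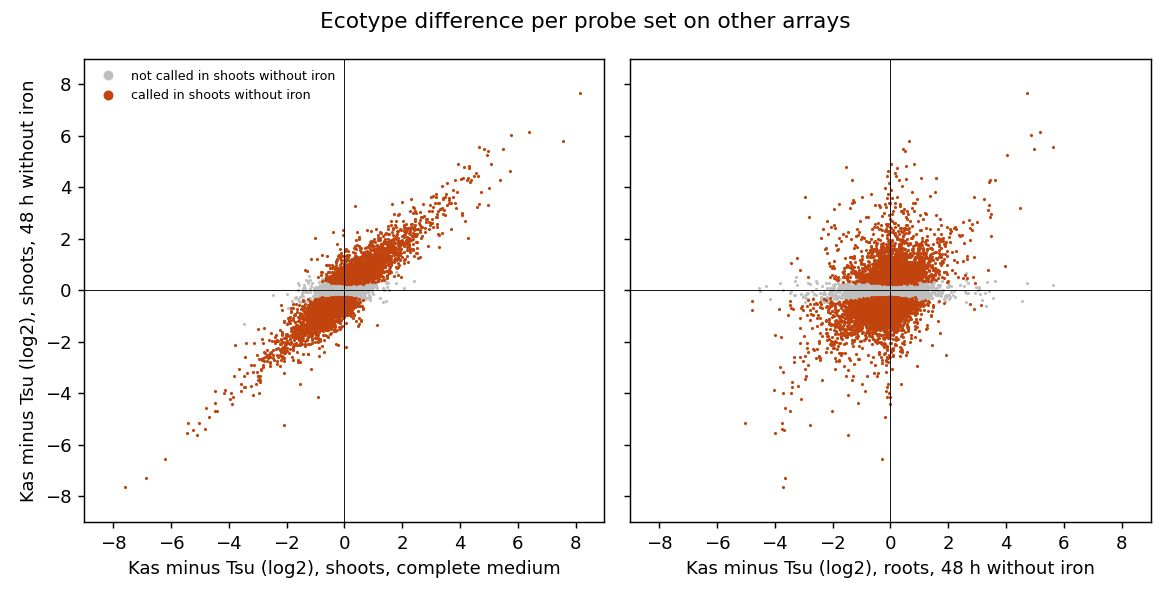
Kas minus Tsu difference in shoots after 48 h without iron (log2, vertical axis) against the same difference in shoots on complete medium (left) and in roots after 48 h without iron (right), 1 point per probe set, coloured where called in shoots without iron. The correlation across probe sets is 0.849 on the left and 0.356 on the right.

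Of the 30 genes with the largest shoot differences, 22 were called in the same direction in roots, 0 in the opposite direction, and 8 were not called. Of all probe sets 24.7% were called in roots, 9.05% higher in Kas and 15.7% lower. The 22 were 22 again with only the 48 h arrays and without Tsu replicate 2, and 21 at the lowest on leaving out another array. AT3G62400 differed alike in both tissues, by -3.86 in shoots and -4.04 in roots. TUA6 averaged 6.36 in Kas roots and 10.35 in Tsu roots, and CSA1 3.04 in Kas roots and 6.70 in Tsu roots. AT3G22240 was among the 8, with 9.34 in Kas roots and 9.62 in Tsu roots, and the test of its shoot difference against its root difference gave -6.25 (limma adjusted p = 2.32e-20). The same test was called for 16 of the 30 genes, beside 20.8% of all probe sets, 10.2% with a positive and 10.5% with a negative value. It was called for 18 with only the 12 arrays of 48 h and for 16 without Tsu root replicate 2. The 30 genes were chosen by their shoot differences, which enter this test, so its calls and p-values among them are a description. The defence genes OSM34 (4.90) and CHI (4.73) and the channel GLR2.7 (3.80) were among the 16. For AOP3 the test gave -3.64 (adjusted p = 0.00386), as the gene averaged 3.48 in Kas roots and 7.13 in Tsu roots.

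For 6 of the 13 iron-signalling probe sets, of which 2 belong to BTSL1, the shoot and root differences were called as different, beside 20.8% of all probe sets. The count was 5 with only the 12 arrays of 48 h, 6 without Tsu root replicate 2 and 4 without Tsu root replicate 1 or Kas root replicate 2. PYE, ILR3, BHLH34, BHLH104, BHLH115, BHLH121 and IMA1 were not called in this test. In roots 7 of the 13 probe sets were called, all lower in Kas, and 6 with either other scaling, where 15.7% of all probe sets were called lower as deposited. The 7 were 7 again with only the 48 h arrays and without Tsu replicate 2, and 6 at the lowest on leaving out another array. BHLH101 read 3.08, 2.81 and 3.66 in Kas roots, against 6.48, 4.65 and 7.77 in Tsu roots, where replicate 2 was the lowest, a difference of -3.12, against -1.08 in shoots. The test of the shoot difference against the root difference gave 2.04 (adjusted p = 0.0286). It was 2.86 without Tsu root replicate 2 and 1.3 without Tsu root replicate 3 (adjusted p = 0.125), and the adjusted p was 0.076 with only the 12 arrays of 48 h. AT5G05250 averaged 5.45 in Kas roots and 8.55 in Tsu roots, a difference of -3.11, and the test gave 2.40 (adjusted p = 3.06e-05). AT3G07720 was lower in Kas roots by -1.48 and higher in Kas shoots by 0.35, with a test of 1.83 (adjusted p = 0.000103). BTSL2 averaged 6.88 in Kas roots and 8.1 in Tsu roots, a difference of -1.22, while its shoot difference was 0.29, and the test gave 1.5 (adjusted p = 1.24e-06).

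**Figure D5:**
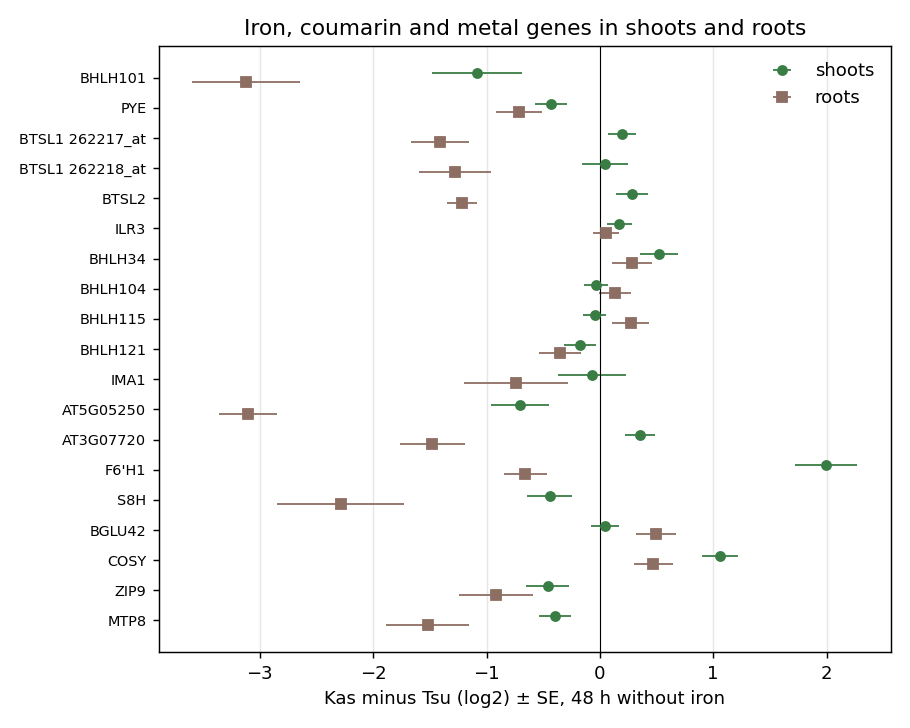
Kas minus Tsu difference (log2, horizontal axis) with its standard error for the measured iron-signalling, coumarin and metal genes after 48 h without iron, shoots as circles and roots as squares. BHLH101 and AT5G05250 lie at -3.12 and -3.11 in roots and at -1.08 and -0.70 in shoots, while F6'H1 lies at 2.0 in shoots and -0.66 in roots.

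Of the 4 coumarin genes, F6'H1 and S8H had a called difference between tissues, beside 20.8% of all probe sets, and COSY (0.59, adjusted p = 0.082) and BGLU42 (-0.44, adjusted p = 0.156) did not. That count of 2 was the same with only the 12 arrays of 48 h and without Tsu root replicate 2. In roots 0 of the 4 were called higher in Kas and 2 lower as deposited, beside 9.05% and 15.7% of all probe sets. The split was 2 higher and 1 lower with each array centred on its median, and 2 higher and 2 lower after quantile normalization. It was 1 higher and 2 lower with only the 48 h arrays, and 0 higher and 2 lower without Tsu replicate 2. F6'H1 was higher in Kas shoots by 2.0 and lower in Kas roots by -0.66, where it averaged 10.64 in Kas roots and 11.30 in Tsu roots, and the test of the difference gave 2.65 (adjusted p = 2.29e-06). Its level in shoots was far below that in roots in both ecotypes. S8H averaged 7.08 in Kas roots and 9.37 in Tsu roots, a difference of -2.29. Its difference was -0.44 in shoots, where it was dim, with means of 2.83 in Kas and 3.27 in Tsu. The test for S8H gave 1.84 (adjusted p = 0.0342). That call of S8H ended on leaving out any root array of 48 h but Tsu replicate 2, with an adjusted p up to 0.0899. The root call of F6'H1 ended without Tsu root replicate 1 (adjusted p = 0.0802) or Kas root replicate 2 (adjusted p = 0.0642). STZ differed by 2.09 in shoots and -1.53 in roots, and AOP1 by -1.36 in shoots and 1.27 in roots, where AOP1 was dim, with means of 3.90 in Kas roots and 2.64 in Tsu roots. For COR15A the differences were -2.40 in shoots and 0.58 in roots, where it was dim in both ecotypes, with means of 3.17 in Kas roots and 2.59 in Tsu roots.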

How the data were processed

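The authors deposited a table of log2 signals with a single number for each probe set on each array. That the scale is log2 was read from the range of the values. How the authors corrected background, summarised probes and normalized was not given in the sources used here, and no detection calls were used. Of 22810 probe sets, 64 Affymetrix controls were dropped, and all 22746 others entered the tests, dim or not. Gene names follow the platform annotation, updated to RefSeq (assembly TAIR10.1), which was used for names and for neighbour order alone. Of the probe sets, 13513 named 1 gene (13436 matched to RefSeq, 77 not), 503 named several and 8730 are unnamed here. BTSL1, BTSL2, IMA1, MIT1, MIT2, S8H, COSY, MTP8, NFS2, PSAE1, GSL-OH, UGT74C1 and COR28 were matched by locus code.

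Differences were tested with limma 3.58.1 in R 4.3.3 (lmFit, eBayes, 1 mean per group, two-sided, Benjamini-Hochberg). The 18 shoot arrays entered 1 fit, the 18 root arrays another, and the shoot against root contrast used all 36. The number of arrays limits the precision. The procedure was tested on simulated data. The text names the 15 largest differences in each direction among called probe sets that name 1 gene and whose ecotypes do not overlap, the 5 largest contrasts between media in each direction, and any list member. The members and lists were chosen with earlier results of these data known, and the gene families of the closing section after their values were seen. Replicate numbers were not taken as pairs: deviations of same-numbered Kas and Tsu arrays correlated at 0.106, 0.018 and 0.082. Alternatives were other arrays in the fit, median centring, quantile normalization, a filter on dim probe sets, the replicate number as a block, another variance model and leaving out each array. For the root values of gene lists, leaving out root arrays was added after seeing the data. No columns of the table were unmapped, and 0 arrays held identical values.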

Additional observations from a re-analysis of the deposited data

Results flagged for a closer look

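For 16 of the named or listed genes the ecotype difference without iron was called as different from that on complete medium, by the contrast between the media. Its values were 0.88 for AT5G45500, -1.10 for CHI, -1.02 for AT2G39850, 2.29 for EXLA1, 2.18 for AT5G48490, 2.06 for AT1G06830, 2.02 for AT5G01015, 1.88 for AT1G76240, -2.48 for AT1G80130, -1.86 for AT1G73040, -1.80 for AT4G22490, -1.78 for AT4G14090, -1.68 for SUFE2, -0.77 for CCS, -0.74 for COR27 and -1.02 for COR28. The share of all probe sets called by this contrast was 3.94%. The genes from EXLA1 to SUFE2 in that series were chosen by this same contrast, so their calls were fixed by the choice. Apart from them, 3 of the 30 genes with the largest differences and 3 of the 60 list probe sets were called. The 30 were chosen by the difference without iron, which enters this contrast. AT5G45500 and AT2G39850 had a larger ecotype difference without iron, and CHI a smaller one.

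For 42 probe sets the ecotype difference in shoots was called as different from that in roots, where 20.8% of all probe sets were. They were 16 of the 30 genes with the largest shoot differences and 28 of the 60 list probe sets, with OSM34 and AOP3 in both. Among the genes with the largest shoot differences the contrast was 4.90 for OSM34, 4.73 for CHI, 4.25 for AT5G59670, 3.28 for AT2G32160, 3.80 for GLR2.7, 2.27 for AT3G46370, 2.29 for MPC and 3.40 for AT3G13950. It was -3.64 for AOP3, -6.25 for AT3G22240, -4.17 for AT3G47250, -2.69 for AT2G23480, -4.03 for AT1G69730, -2.62 for AT1G16850, -3.93 for AT2G39850 and -2.66 for AT1G62510. In all 16 the difference was larger in shoots, from which the genes had been chosen. AT5G59670, AT2G32160, GLR2.7, AT3G46370, MPC, AT3G13950, AT3G47250, AT2G23480, AT1G69730, AT2G39850 and AT1G62510 were dim in roots, with means below 5 in both ecotypes.

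Iron and metal genes gave 2.04 for BHLH101, 1.61 and 1.32 for the 2 probe sets of BTSL1, 1.5 for BTSL2, 2.40 for AT5G05250, 1.83 for AT3G07720, 0.55 for MIT1, 2.65 for F6'H1, 1.84 for S8H and 1.13 for MTP8. Plastid genes gave -1.78 for PSAE1, -0.65 for CHLI2, 0.63 for CHLM and -0.73 for PORB. Glucosinolate and defence genes gave -2.63 for AOP1, 2.02 for GSL-OH, 2.79 for PDF1.2, 2.35 for PDF1.4, -2.42 for THI2.1 and -1.23 for THI2.2. Cold, drought and clock genes gave 0.88 for COR27, -2.99 for COR15A, -1.73 for COR15B, -0.65 for COR47, 3.62 for STZ and -2.54 for LTI30. Of the genes in this paragraph, PSAE1, CHLI2, PORB, AOP1, GSL-OH, PDF1.2, THI2.1, THI2.2, COR27, COR15A and COR15B were dim in roots, with means below 5 in both ecotypes. Of its iron and metal genes, BHLH101, BTSL1, BTSL2, S8H and MTP8 were dim in shoots, by the same limit.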

How the results depend on the processing

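Leaving out probe sets with a mean below 5 cut the number tested and with it the calls: 5420 of 11320 for Kas against Tsu shoots without iron, 5030 of 11320 on complete medium, 3738 of 11538 in roots, and 3130 of 11669 for the contrast of shoots against roots. Of the 30 genes with the largest differences this filter kept 19, all 19 called in the same direction. Leaving out 1 array gave 6979 to 8535 calls in shoots without iron, 30 of the 30 genes each time, 6257 to 6816 on complete medium, 3707 to 4674 in roots, 3835 to 4922 for shoots against roots, and 505 to 1577 for the contrast between media. That contrast was also called at 479 probe sets when only the arrays of its groups entered the fit and at 468 with all 36 arrays, and the cause was not tested. The replicate numbers were not taken as pairs, and with the replicate number as a block the calls were 8145 in shoots without iron (30 of the 30 genes), 7344 on complete medium, 748 between media, 5533 in roots and 4632 for shoots against roots. Over 101 single-gene results in shoots and 1462 alternative values, 1351 kept direction and side of the threshold, 87 lost the call (18 results), 24 gained it (9 results) and 0 reversed. In 29 of the 76 and 21 of the 49 probe sets with at least an 8-fold difference, the lower ecotype lay below 2.82. Whether background limits their folds was not tested.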

Other observations

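Gene families picked by symbol after the values were seen give a wider view of Kas against Tsu shoots without iron. Over all probe sets 36.7% were called, 13.4% higher in Kas and 23.2% lower. Of 8 glutamate receptor-like channel genes, 4 were higher in Kas and 2 lower, the same split under median centring and quantile normalization, with GLR2.7 (4.34), GLR2.8 (2.2) and ATGLR1.2 (1.49) above and GLR3.6 (-0.83) and GLR3.5 (-0.70) below. Of 15 SWEET sugar transporter genes, 3 were higher and 4 lower under all 3 scalings, from SWEET2 (2.28) and SAG29 (1.97) to SWEET4 (-1.30) and SWEET13 (-2.04). Of 49 UDP-glycosyltransferase genes, which attach sugars to hormones and phenolics, 14 were higher in Kas and 7 lower, or 17 and 5 with median centring. UGT87A2 (1.99) and UGT73D1 (1.91) were the highest, and UGT85A5 (-1.74) the lowest. The median of the family was -0.01, against -0.09 over all probe sets.

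Of 18 genes for expansins, which loosen cell walls, 6 were lower in Kas, beside 23.2% of all probe sets, among them EXLA3 (-1.64) and EXPA16 (-1.27). The 2 higher in Kas, beside 13.4% of all probe sets, were EXPB1 (0.76) and EXPA9 (0.64). With median centring 3 were higher and 6 lower. The same shares of all probe sets, 13.4% higher in Kas and 23.2% lower, stand beside each family that follows. Of 13 glutathione transferase genes, 5 were higher, led by GSTU15 (1.82), and 3 lower, led by GSTU20 (-2.44). Of 7 tubulin genes, 2 were higher and 3 lower, with TUB5 (-1.68) next to TUA6. Of 23 serine carboxypeptidase-like genes, 4 were higher and 8 lower, or 7 lower with median centring. Of 20 beta-glucosidase genes, 4 were higher and 5 lower, but 5 higher and 3 lower with either other scaling. Of 19 CYP71B cytochrome genes, 5 were higher and 7 lower, or 6 lower with either other scaling. Of 6 WRKY transcription factor genes, 3 were higher, WRKY53 (1.25), WRKY6 (1.24) and WRKY47 (1.2), and WRKY42 was lower (-0.84).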
